A study of Mus musculus with 6 samples.

Results

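Oxidative phosphorylation is carried out by 5 protein complexes of the inner mitochondrial membrane, and the transcripts of their subunits were compared between injured and uninjured mouse spinal cord. The genes were chosen by symbol alone. Taken were symbols beginning with mt-Nd, mt-Co, mt-Cytb, mt-Atp, Uqcr, Atp5 and Cox4 to Cox8, those of the Nduf a, b, c, s and v series with a number, and Sdha to Sdhd with the symbols that extend them. Symbols containing -ps were left out, which removed 6. The rule took 105 of the 43432 genes in the tables, 92 from the nuclear genome and all 13 protein-coding genes of the mitochondrial genome. Of the nuclear genes, 38 belong to complex I, 8 to complex II, 8 to complex III, 21 to complex IV and 17 to complex V, the ATP synthase. Ndufa4 and its paralogue Ndufa4l2 are placed with complex IV. Some members are not subunits. Sdhaf1, Sdhaf2, Sdhaf3 and Sdhaf4 help to assemble complex II, Cox7a2l acts in joining complexes into supercomplexes, and Atp5s is counted here as an accessory factor of the ATP synthase. Ndufa11b, Ndufb4c, Ndufs6b and Cox6c2 are annotated as processed pseudogenes; they had 5 to 35 counts over all libraries and none was tested. Ndufab1, a subunit of complex I, has no symbol of that pattern and is not among the members.

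The study sequenced RNA from spinal cord tissue of wildtype C57BL/6 mice. The injured group (SCI, 3 mice) had a contusion on one side of cervical level 5, made by an Infinite Horizon impactor set to 50 kdyn, and tissue was taken at 4 h. The sham group (3 mice) had a laminectomy only, which opens the bone over the cord without a blow, and its collection time is not stated apart from that of SCI. Libraries were made from the 3′ ends of polyadenylated transcripts, so counts do not scale with transcript length and levels of different genes are given as CPM (counts scaled to a common library size) without length correction. Library sizes were scaled by the TMM method, and CPM was rounded to 4 significant digits.

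Complexes I to IV form the respiratory chain. Complex I takes electrons from NADH and complex II from succinate, complex III passes them on to cytochrome c, and complex IV hands them to oxygen, while I, III and IV pump protons across the membrane. The ATP synthase lets the protons flow back and makes ATP. Complex II is built from nuclear genes only, and the other complexes combine nuclear subunits with core subunits made inside mitochondria. Neurons in the spinal cord depend on this pathway for most of their ATP.

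Total counts ran from 3407176 (sham 3) to 11543633 (sham 2). All 9 neuronal and all 8 oligodendrocyte markers of the lists used were tested. Neuronal markers summed to 5161 ± 929 in sham and 4710 ± 61.8 CPM in SCI, and oligodendrocyte markers to 7288 ± 1080 and 7762 ± 1910 CPM. Hepatocyte markers were also present in every library, and all 15 were tested, so passing the filter does not by itself identify the tissue. Their summed level was above both of these lists in every library. It was 55780 to 126300 CPM in sham (highest in sham 2, lowest in sham 3) and 70890 to 82920 CPM in SCI. Albumin alone was at 25650 to 63540 CPM. Liver cells also express oxidative phosphorylation genes, and how much of the members' counts came from such RNA was not tested. Erythroid markers summed to 746.6 ± 117 in sham and 2958 ± 1350 CPM in SCI, and 5 of 6 tested were called higher. Of 6 microglial markers 1 was called lower, and no marker in the other lists used was called. In whole tissue, fewer cells of a type and less RNA per cell cannot be told apart.

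The ends of the mitochondrial transcripts are printed first, because most of the genes without counts have ends that are found again elsewhere in the genome. In the GRCm38 annotation used, a stretch of mouse chromosome 1 holds copies of a run of mitochondrial genes, annotated as unprocessed pseudogenes. A read of 50 bases that lies wholly in such a copy matches in 2 places. For each gene the last 80 bases of its transcript follow, 5′ to 3′, with capitals marking bases covered by a run of 50 bases that is also found, letter for letter, in the transcript of another annotated gene. The stretches lie at chrM:3628-3707 (mt-Nd1), chrM:6793-6872 (mt-Co1), chrM:7617-7696 (mt-Co2), chrM:7890-7969 (mt-Atp8), chrM:8528-8607 (mt-Atp6), chrM:9311-9390 (mt-Co3), chrM:10094-10173 (mt-Nd4l), chrM:11465-11544 (mt-Nd4) and chrM:15209-15288 (mt-Cytb), all on the plus strand.
mt-Nd1: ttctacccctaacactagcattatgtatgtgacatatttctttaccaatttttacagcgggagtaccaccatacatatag
mt-Co1: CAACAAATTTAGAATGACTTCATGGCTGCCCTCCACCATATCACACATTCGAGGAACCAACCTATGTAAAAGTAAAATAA
mt-Co2: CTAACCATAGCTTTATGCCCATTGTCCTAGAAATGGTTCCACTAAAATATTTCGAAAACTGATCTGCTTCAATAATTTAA
mt-Atp8: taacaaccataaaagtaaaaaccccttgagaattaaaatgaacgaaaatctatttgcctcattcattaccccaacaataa
mt-Atp6: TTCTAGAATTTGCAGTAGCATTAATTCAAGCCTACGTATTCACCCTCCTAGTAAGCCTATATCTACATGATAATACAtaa
mt-Co3: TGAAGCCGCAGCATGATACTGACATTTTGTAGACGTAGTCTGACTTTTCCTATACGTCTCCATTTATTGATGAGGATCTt
mt-Nd4l: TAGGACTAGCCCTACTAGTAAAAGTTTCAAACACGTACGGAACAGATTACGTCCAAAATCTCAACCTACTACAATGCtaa
mt-Nd4: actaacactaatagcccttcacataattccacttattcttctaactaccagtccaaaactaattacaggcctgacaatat
mt-Cytb: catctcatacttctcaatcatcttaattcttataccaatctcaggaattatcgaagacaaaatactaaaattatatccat

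mt-Co2 and mt-Co3, which encode core subunits of cytochrome c oxidase, and mt-Atp6, which encodes the proton-channel subunit of the ATP synthase, had exactly 0 counts in all 6 libraries. So did mt-Atp8 and the complex I subunit gene mt-Nd4l. A count of 0 allows a level of up to 0.26 CPM in the deepest library and 0.88 CPM in the shallowest, while mt-Nd4, which begins within the end of mt-Nd4l, had a mean of 44130 CPM. The genes listed at 0 are therefore not a measurement of how much of these RNAs the tissue held. Of all runs of 50 bases in the transcript, 100% were shared with another gene for mt-Co2, 99.9% for mt-Co3, 99.5% for mt-Atp6 and 98.8% for mt-Nd4l. The copies were Gm28661, Gm28437, Gm10925 and Gm10222, which lie within chr1:24612407-24615565 and themselves had 0, 7, 12 and 2 counts over the 6 libraries. mt-Nd3, with 98.0% shared, had 74 counts, and its copy Gm28438 had 102.

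At the other end, mt-Nd1 and mt-Cytb shared no run of 50 bases with another gene and had 655203 and 612624 counts. For mt-Nd4 62.2% of runs were shared over the whole transcript but 0% in its last 300 bases, and it had 1937001 counts, 49.6% of all counts in the 13 mitochondrial genes. Counts did not follow sharing throughout. mt-Nd6, with 0% shared, had only 610 counts, and mt-Nd5, with 2.0% of its end shared, had 73725, fewer than the 553482 of mt-Nd2 with 31.9%. mt-Co1 had 75013 counts although its last 300 bases were 100% shared, over a transcript that was 51.1% shared. mt-Atp8 had none although 0% of it was shared. Its message is carried on 1 transcript with mt-Atp6, whose end it does not reach. How the counting treated reads with more than 1 match is not given in the sources used here, and its part in the counts of 0 was not tested.

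**Figure D1:**
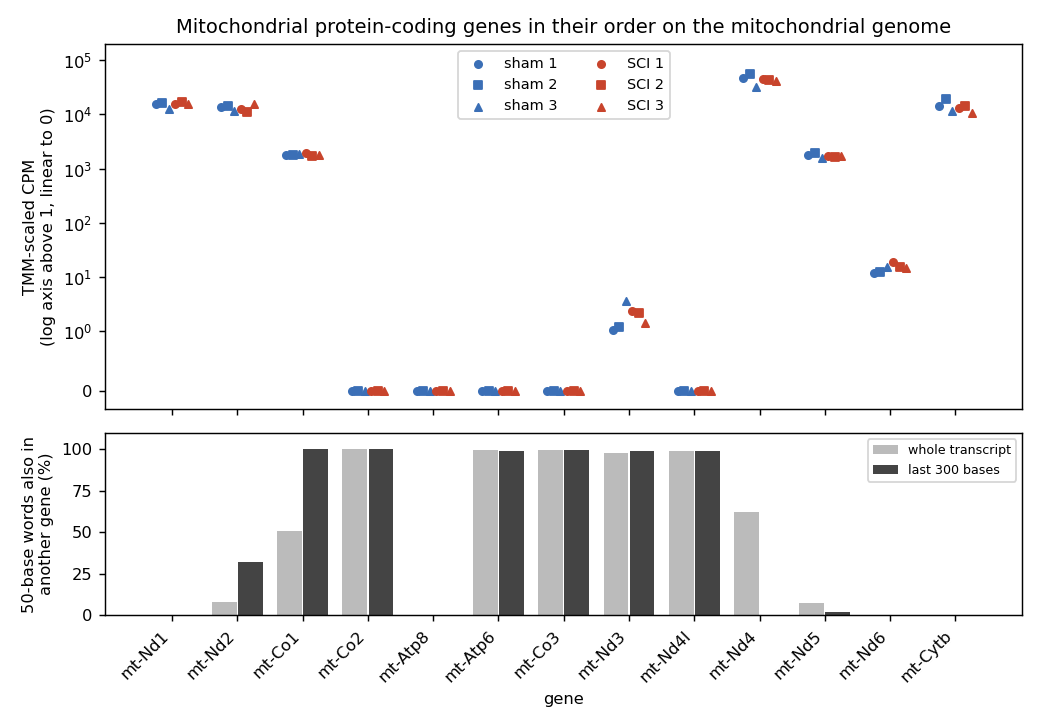
The upper panel plots the TMM-scaled CPM of the 13 mitochondrial protein-coding genes in each of 6 libraries (blue sham, red SCI; log axis above 1, linear to 0), and the lower panel plots the percent of 50-base runs also found in another gene, over the whole transcript (light) and its last 300 bases (dark). The 5 genes at 0 lie between mt-Co1 and mt-Nd4, and 4 of them are at least 98.8% shared.

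The steady-state level of oxidative phosphorylation transcripts showed no called change after injury. Of the 105 members, 87 had enough counts to be tested (79 nuclear and 8 mitochondrial), and none was higher or lower in SCI by edgeR's quasi-likelihood test at an adjusted p under 0.05, where 0.929% of all 13560 genes tested were called (126 genes: 0.885% higher and 0.0442% lower). At an unadjusted p under 0.05 there were 4 members (4.6%), against 7.38% of all genes, and all 4 were lower in SCI. DESeq2 called none of 97 members, with 4 at an unadjusted p under 0.05, and limma voom called none of 87, with 3. The smallest adjusted p among members was 0.50, for Cox7c. Libraries of the groups did not overlap for 5 of 87 members (5.75%), against 13.7% of all genes.

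The precision behind this is given by the intervals. The 95% interval of the fold change lay wholly within 1 log2 unit of 0, that is within a doubling or a fall to 50%, for 78 of 87 members (89.7%) and for 71% of all genes. The 9 others were mt-Nd3, Ndufb3, Ndufa1, Sdhaf2, Ndufa4, Cox7c, Cox6b2, Atp5s and Atp5l. Members' log2 fold changes ran from -0.91 to 0.31 with a median of 0.04, and 51 of 87 (58.6%) were above 0, against a median of -0.002 and 49.7% over all genes. The median standard error was 0.21 for members and 0.25 for all genes.

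Neither genome had members called. Mitochondrial members took 9.40%, 9.79% and 7.68% of all counts in sham 1 to 3 and 9.10%, 9.49% and 8.14% in SCI 1 to 3. The groups overlapped, at 8.96 ± 1.12% and 8.91 ± 0.695% (SD of 3 mice). Nuclear members took 1.95%, 1.91% and 1.84% in sham and 1.90%, 2.06% and 1.98% in SCI, again overlapping. The 5 mitochondrial genes at 0 added nothing to the mitochondrial counts, and mt-Nd4 made up 49.6% of them. The ratio of mitochondrial to nuclear counts was 4.82, 5.14 and 4.18 in sham and 4.78, 4.59 and 4.12 in SCI. Its SCI mean was 0.955 times the sham mean. Sham 1 and sham 2 lay above all SCI libraries and sham 3 lay within their range. The median log2 fold change was 0.04 for the 79 nuclear and -0.02 for the 8 mitochondrial members. Leaving out 1 library could change the sign of either median: without SCI 3 the nuclear median was -0.02 and without sham 3 it was -0.03, and without sham 2 the mitochondrial median was 0.03.

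**Figure D2:**
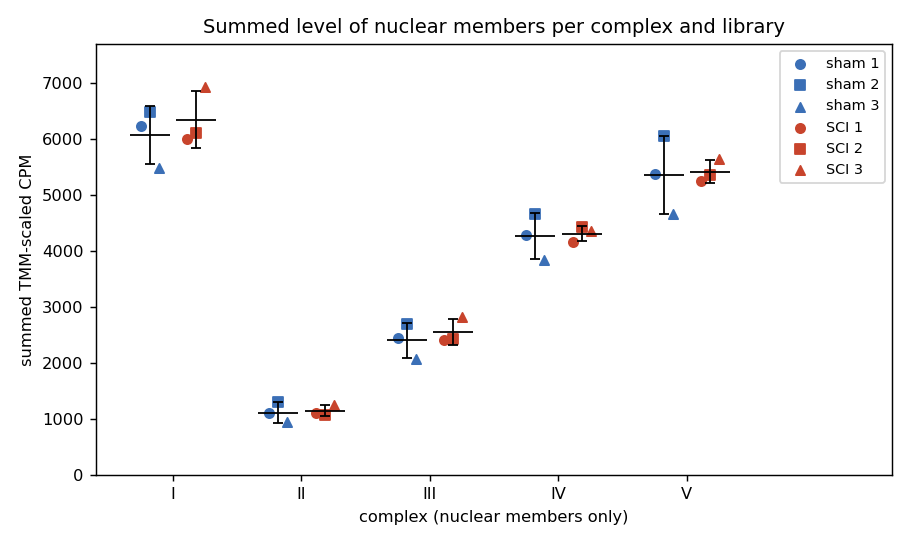
Summed TMM-scaled CPM of the nuclear members of each complex is plotted for each library (blue sham, red SCI), with bars for the mean and SD of 3 mice. Sham and SCI libraries overlap in every complex, and within the sham group sham 2 is highest and sham 3 lowest in all 5.

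Complex by complex, the sums overlapped between groups. Nuclear complex I members together reached 6071 ± 516 in sham and 6345 ± 510 CPM in SCI, and those of complex II 1113 ± 182 and 1145 ± 96.6 CPM. Complex III members reached 2401 ± 314 and 2553 ± 236 CPM, complex IV members 4262 ± 414 and 4311 ± 137 CPM, and complex V members 5365 ± 695 and 5418 ± 200 CPM (SD of 3 mice each). The ratios of SCI to sham were between 1.01 and 1.06. A sum depends on how many genes it holds. Per subunit, the median level over all libraries was 295 CPM in complex V, 230 CPM in III, 208 CPM in II, 146 CPM in I and 84.8 CPM in IV, with assembly factors and pseudogenes left out. At 10 CPM or more were 34 of 35 nuclear subunit genes of complex I and 11 of 19 of complex IV, where the 8 others were Cox4i2, Cox6a2, Cox6b2, Cox7a1, Cox7b2, Cox8b, Cox8c and Ndufa4l2.

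Sham 2, the library with the most hepatocyte marker counts (126300 CPM), had the highest sum of nuclear members among the sham libraries in every complex, and sham 3, with the fewest (55780 CPM), had the lowest. The mitochondrial members of complex I followed the same order, at 87790 CPM in sham 2 and 57560 CPM in sham 3. Those of complex III did too, at 19300 and 11560 CPM. Mitochondrial complex IV members, of which only mt-Co1 had counts, had the opposite order, at 1748 CPM in sham 2 and 1845 CPM in sham 3. The SCI libraries followed the order of the hepatocyte markers only in part. SCI 3, with the most (82920 CPM), had the highest SCI sum in nuclear complexes I, II, III and V. In nuclear complex IV the highest was SCI 2 (4421 CPM), which had the fewest hepatocyte marker counts (70890 CPM). SCI 2 was lowest of the SCI libraries only in nuclear complex II. For mitochondrial complex III, SCI 3 was lowest at 10640 CPM. Sham 2 was also the deepest library and sham 3 the shallowest. With the mean log2 level of the hepatocyte markers as a covariate, edgeR called 0 members. The fit without it called 0 as well, so this count cannot show what part such RNA had. The covariate fit had 6 members at an unadjusted p under 0.05 and a smallest adjusted p of 0.298, against 4 and 0.50 without the covariate. The part of hepatocyte RNA in the levels was not tested.

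**Figure D3:**
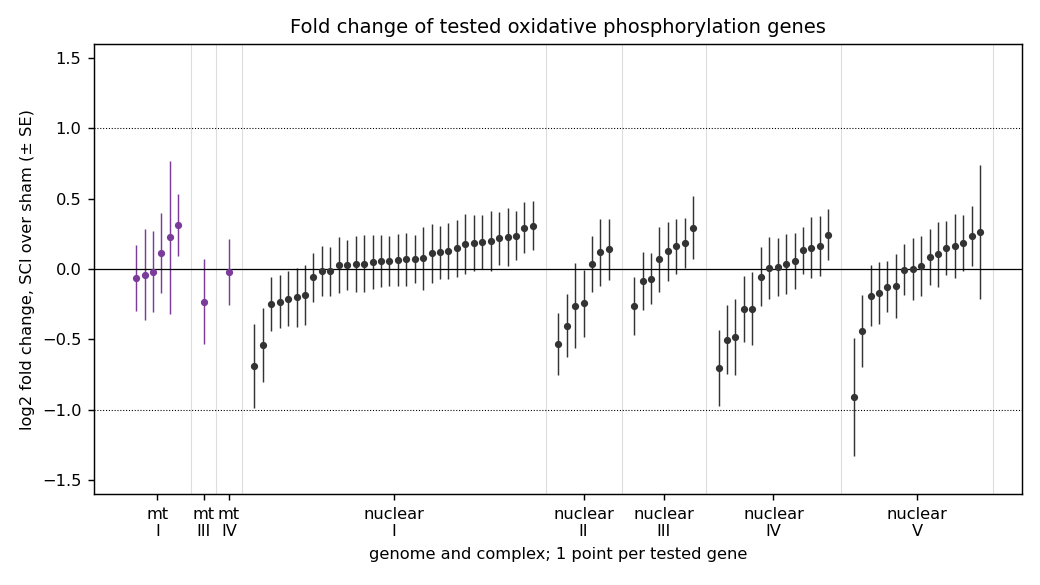
The log2 fold change of SCI over sham is plotted with its standard error for each of the 87 tested members (purple mitochondrial, black nuclear), ordered by size within each complex. Dotted lines mark 1 and -1, and every point lies between them.

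Among mitochondrial genes of complex I, mt-Nd4 encodes a proton-pumping subunit and was the most abundant member of all. It stood at 47020, 55260 and 31940 in sham and 45650, 43190 and 41700 CPM in SCI. The sham libraries enclosed all 3 SCI libraries, and the log2 fold change was -0.04 ± 0.32 (SE; adjusted p = 0.991). mt-Nd1 was at 14730 ± 1946 in sham and 15920 ± 869 CPM in SCI, and mt-Nd2 at 13170 ± 1495 and 13010 ± 2186 CPM. mt-Nd5 was lower than these, at 1764 ± 198 and 1688 ± 68.9 CPM.

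mt-Nd6 is the only protein-coding gene on the other strand of the mitochondrial genome. Its level was 11.8, 12.4 and 15.5 in sham and 18.7, 15.3 and 14.5 CPM in SCI. Its log2 fold change of 0.31 ± 0.22 was the highest of all tested members (adjusted p = 0.854) and was 0.19 without SCI 1, and sham 3 lay above SCI 2 and SCI 3. mt-Nd3 was at about 2 CPM in both groups, with an interval from -0.93 to 1.39 that says little.

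In complex III, mt-Cytb encodes cytochrome b, the subunit that holds the haems through which electrons cross the membrane. It was at 14010, 19300 and 11560 in sham and 13250, 14370 and 10640 CPM in SCI. Sham 2 stood above all other libraries, and the log2 fold change was -0.23 ± 0.30 (adjusted p = 0.935), and -0.01 without sham 2. In complex IV, mt-Co1 encodes the subunit that holds the site where oxygen is reduced. Over the 6 libraries its range was the narrowest of the abundant mitochondrial genes, from 1748 to 1845 in sham and from 1687 to 1903 CPM in SCI, with a log2 fold change of -0.02 ± 0.23. The mitochondrial rRNAs, outside the members, were at 6.14 ± 1.54% of counts in sham and 5.19 ± 0.746% in SCI, and neither was called.

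Of the 34 tested nuclear genes of complex I, 24 had a log2 fold change above 0 and the median was 0.06. Ndufb9, an accessory subunit of the membrane arm and the most abundant nuclear gene of the complex, was at 393, 424 and 337 in sham and 391, 400 and 514 CPM in SCI. Only SCI 3 stood above the sham range. Ndufb7, another accessory subunit, was at 64.2, 52.6 and 55.0 in sham and 67.0, 68.6 and 77.5 CPM in SCI. These groups did not overlap, and the log2 fold change of 0.31 ± 0.17 was the highest of the complex among nuclear genes (adjusted p = 0.757). Ndufa11 likewise had all 3 SCI libraries above the sham range (124.8 ± 3.12 against 147 ± 13.5 CPM), and Ndufc2 had all 3 below it (268 ± 40.3 against 232 ± 12.7 CPM), with adjusted p of 0.864 and 0.904.

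Ndufa1, a small accessory subunit encoded on the X chromosome, gave the lowest fold change of complex I. It was at 20.6, 31.9 and 24.4 in sham and 16.8, 22.5 and 7.93 CPM in SCI. The groups overlapped through SCI 2, and SCI 3 was far below the rest. The log2 fold change was -0.69 ± 0.30 (adjusted p = 0.605), and without SCI 3 it was -0.40 ± 0.25 (adjusted p = 0.975). Ndufv1 and Ndufs1, core subunits that take up electrons from NADH and pass them through iron-sulphur clusters, had log2 fold changes of 0.11 ± 0.21 and -0.02 ± 0.18.

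Complex II holds the enzyme succinate dehydrogenase, which is also a step of the TCA cycle. Its iron-sulphur subunit gene Sdhb was at 635, 750 and 471 in sham and 632, 596 and 789 CPM in SCI. Each group had 1 high library, and the log2 fold change of 0.12 ± 0.24 was -0.02 without SCI 3. Sdha, the flavin subunit, was at 347 ± 33.8 and 356 ± 12.7 CPM. Sdhc, a membrane anchor, was at 57.6, 88.3 and 73.5 in sham and 60.1, 66.7 and 39.05 CPM in SCI, with sham 2 highest and SCI 3 lowest and a log2 fold change of -0.40 ± 0.22 (adjusted p = 0.754), and -0.22 ± 0.22 without SCI 3. Sdhd, the other anchor, had only 50 counts over all libraries and was not tested, although none of its last 300 bases were shared with another gene. The complex II median of -0.24 over 7 tested genes includes the 4 assembly factors. Of these Sdhaf2, which is needed to attach the flavin to Sdha, was at 27.5 ± 5.32 and 18.9 ± 3.83 CPM with a log2 fold change of -0.53 ± 0.22 (adjusted p = 0.572), and -0.41 ± 0.23 without SCI 3.

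All 8 nuclear genes of complex III were tested. Uqcrq, a small subunit and the most abundant of them, was at 699, 807 and 525 in sham and 660, 688 and 784 CPM in SCI, inside the sham range. Uqcr10, another small subunit, was at 364, 386 and 317 in sham and 375, 378 and 555 CPM in SCI. Its log2 fold change of 0.29 ± 0.22 rested on SCI 3 and was 0.07 ± 0.23 without it. Uqcrfs1, the Rieske iron-sulphur protein, was at 113, 153 and 93.3 CPM in the sham libraries and 113, 94.7 and 92.6 CPM after injury. Its log2 fold change of -0.26 ± 0.20 (adjusted p = 0.877) rested on sham 2 and was -0.05 without it.

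In complex IV, Cox6c was the most abundant nuclear subunit gene, at 743, 787 and 669 in sham and 707, 742 and 806 CPM in SCI, with overlapping groups and a log2 fold change of 0.04 ± 0.22. Cox7c, a small subunit, had the smallest p of all members. It was at 38.1, 58.9 and 49.3 in sham and 36.99, 36.5 and 15.9 CPM in SCI. The groups did not overlap, but SCI 1 and SCI 2 lay just below sham 1, and SCI 3 stood apart. The log2 fold change was -0.70 ± 0.27 with an interval from -1.28 to -0.12 (adjusted p = 0.50), and -0.42 ± 0.22 without SCI 3 (adjusted p = 0.916). Of the runs of 50 bases in its last 300 bases, 73.7% are also found in another gene, of which the pseudogene Gm10012 was the main one, so its count is uncertain. Cox8a was the third gene of non-overlapping groups on the higher side, at 143 ± 10.8 in sham and 169 ± 13.3 CPM after injury (0.24 ± 0.18 as a log2 fold change, adjusted p = 0.863).

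In complex V, Atp5a1 encodes the alpha subunit of the catalytic head. It was at 802, 901 and 686 in sham and 772, 799 and 818 CPM in SCI, with means of 796.3 ± 107.5 and 796.2 ± 23.2 CPM. Atp5b, the beta subunit that holds the catalytic sites, was at 580 ± 73.5 and 515 ± 65.8 CPM (log2 fold change -0.17 ± 0.22). Atp5l, a subunit of the membrane part, had the highest fold change of the complex, 0.26 ± 0.47, at about 2 CPM. It was -0.02 without sham 1, and 70.1% of the runs at its end are shared with other genes. Atp5s had the lowest of all members at -0.91 ± 0.42 (adjusted p = 0.668). It was at 2.76, 4.91 and 5.15 in sham and 1.57, 3.18 and 1.98 CPM in SCI, from 136 counts in all.

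Several subunits have paralogues that are used in heart and skeletal muscle, in lung or in testis. In each such pair the common form had the higher counted transcript level. Cox4i1 was at 578 ± 60.4 in sham and 647 ± 38.5 CPM in SCI, while Cox4i2, the form known from lung, had 17 counts in all libraries together. Cox6a1 was at 632 ± 85.9 and 636 ± 48.3 CPM, against 15 counts for the muscle form Cox6a2. Cox8a had levels given above, against 15 counts for the muscle form Cox8b. Cox7a2 was at 562 ± 70.4 and 624 ± 65.7 CPM, and its muscle form Cox7a1 was detected at 10.1 ± 2.11 and 8.27 ± 0.802 CPM, with a log2 fold change of -0.28 ± 0.26, which was -0.17 without sham 1 and -0.47 without sham 2. Beside this, skeletal muscle markers summed to 84.6 ± 25 and 87.1 ± 14.5 CPM with 4 of 15 tested. The defining marker Acta1 was at 2.72 ± 1.88 and 2.94 ± 2.34 CPM, and Ckm at 0.621 ± 0.401 and 0.259 ± 0.293 CPM. Other genes of the list thus made up most of the sum, which is no measure of muscle RNA.

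Cox6b1 was at 350 ± 31.5 and 365 ± 16.2 CPM, and its testis form Cox6b2 at 9.99 ± 2.23 and 7.25 ± 1.15 CPM (log2 fold change -0.48 ± 0.27, adjusted p = 0.758, and -0.29 without sham 2). Cox7b was at 386 ± 69.6 and 317 ± 76.0 CPM against 5 counts for Cox7b2. Ndufa4 was at 119, 191 and 128 in sham and 116, 126 and 68.2 CPM in SCI, where sham 2 was high and SCI 3 low. Its log2 fold change was -0.50 ± 0.24 (adjusted p = 0.705), -0.29 ± 0.24 without SCI 3 and -0.27 without sham 2. Ndufa4l2, the form induced by low oxygen, stayed under the test's filter with 35 counts, at 0.875 ± 0.255 in sham and 0.747 ± 0.0401 CPM in SCI. Subunit c of the rotating ring of the ATP synthase is encoded by 3 genes. Atp5g3 had the highest counted transcript level, at 644 ± 117 and 592 ± 62.4 CPM, and Atp5g1 was at 63.6 ± 11.9 and 68.1 ± 13.0 CPM. Atp5g2 had 67 counts, but 100% of its runs are shared, and its copy Gm10175 had 707 counts. The level of Atp5g2 and its rank among the 3 genes are therefore uncertain.

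**Figure D4:**
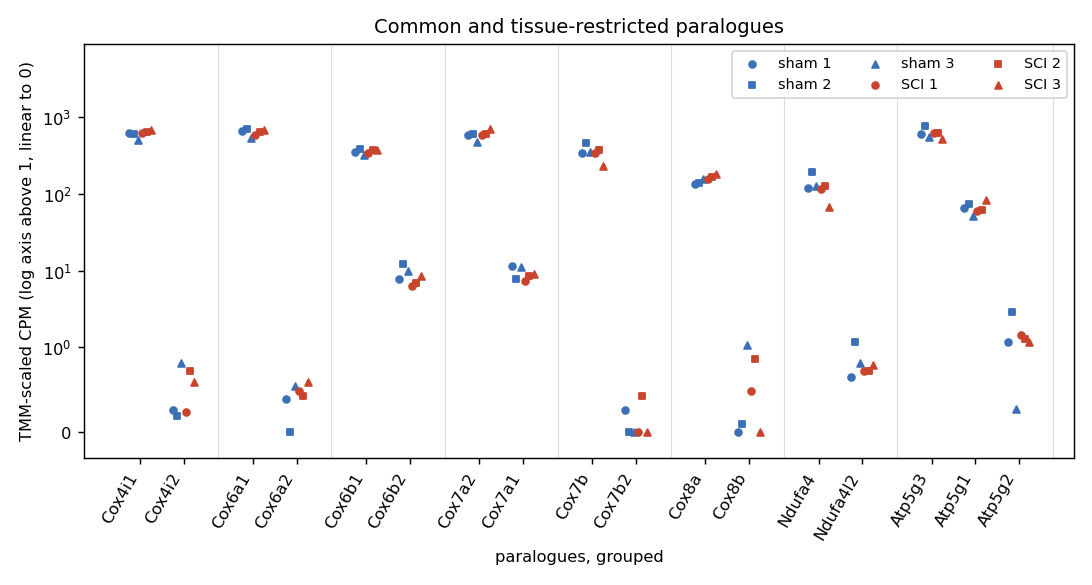
TMM-scaled CPM in each library (blue sham, red SCI; log axis above 1, linear to 0) is plotted for the common form of each subunit, first in its group, and its paralogues. Cox4i2, Cox6a2, Cox7b2 and Cox8b have group means under 1 CPM, and Cox6b2 and Cox7a1 lie near 10 CPM.

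The other 18 members did not pass the filter on low counts. They were 13 nuclear genes and 5 mitochondrial ones, and 6 of the 18 had no count in any library, the 5 mitochondrial genes above and Cox8c. Over all 105 members, 13 shared at least 50% of the runs in their last 300 bases with another gene, and 10 of those 13 had under 100 counts in all. The 10 include mt-Co2, mt-Co3, mt-Atp6 and mt-Nd4l and the pseudogenes Cox6c2 and Ndufb4c. Among nuclear subunits of this kind were Ndufs5, a small subunit of complex I with 37 counts, and Atp5g2. Such low counts also occurred with 0% of the end shared, in Sdhd, Cox4i2, Cox6a2, Cox7b2, Cox8b, Cox8c, Ndufa4l2 and mt-Atp8. Ndufs3, a core subunit of complex I with 53.0% shared, had 542 counts and a level of 12.4 ± 1.56 in sham and 13.3 ± 1.90 CPM in SCI, below every other tested nuclear gene of complex I.

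Sham 2 and SCI 3 recurred as the high and low libraries in Cox7c, Ndufa1, Ndufa4 and Sdhc, and SCI 3 as the high one in Uqcr10. The GC content of transcript ends moved with such deviations across members, although not in Sdhc, whose end has 54.0% GC. Among 67 nuclear members with a mean of at least 50 CPM, the deviation of each gene's log2(CPM + 0.5) in a library from its mean over 6 libraries was set against the GC content of its last 300 bases. Spearman's rho was 0.56 in SCI 3, -0.53 in sham 2 and -0.44 in sham 3, and between -0.10 and 0.08 in sham 1, SCI 1 and SCI 2. These are correlations across genes, which are not independent replicates. The log2 fold change itself had a rho of 0.66 with GC, and 0.55 without SCI 3.

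By GC, the 24 lowest members (29.3% to 43.3%) had a median log2 fold change of -0.06 with 7 above 0, the 23 in the middle a median of 0.07 with 21 above 0, and the 20 highest (51.7% to 59.7%) a median of 0.16 with 17 above 0. The 4 members at an unadjusted p under 0.05 had ends of 38.3% (Cox7c), 41.7% (Ndufa1), 46.7% (Sdhaf2) and 36.0% GC (Atp5s). Over 2704 other protein-coding genes at this level rho was 0.44 for the log2 fold change and 0.31 in SCI 3, of the same sign as in the members, while in sham 2 it was only -0.07. Without SCI 3 none of the members tested had an unadjusted p under 0.05, and without sham 2 none did. The part of GC content in the members' fold changes was not tested.

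**Figure D5:**
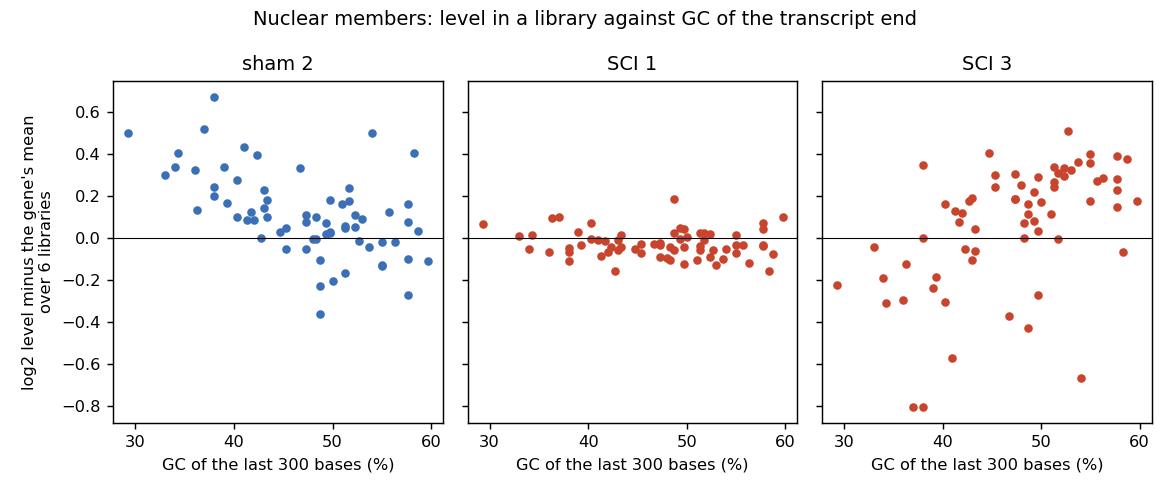
Each point is 1 of 67 nuclear members. The horizontal axis is the GC content of the last 300 bases of its transcript in percent, and the vertical axis is its log2 level in the library named above the panel minus its mean over 6 libraries. Points climb from left to right in SCI 3 (rho 0.56), descend in sham 2 (rho -0.53) and stay near 0 in SCI 1.

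Genes that serve the complexes without being part of them were not called either. Of 44 assembly factors listed, 42 were tested and none was called in either direction by edgeR, with 4 at an unadjusted p under 0.05 and a median log2 fold change of -0.02. The lowest was Cox17, which delivers copper to complex IV, at 6.01 ± 1.18 and 3.01 ± 0.965 CPM (log2 fold change -0.95 ± 0.35, adjusted p = 0.457). None of the 12 genes of cytochrome c and coenzyme Q was called, and cytochrome c itself, Cycs, was at 79.1 ± 5.88 and 82.6 ± 10.5 CPM.

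Of 14 TCA cycle genes none was called, with 2 at an unadjusted p under 0.05, 10 below 0 and a median of -0.10. Fh1, fumarate hydratase, was at 16.5, 33.8 and 16 in sham and 9.67, 14.6 and 5.35 CPM in SCI. Its groups did not overlap, with a log2 fold change of -1.17 ± 0.34 (adjusted p = 0.228). Cs, citrate synthase, was at 48.9 ± 7.86 and 34.7 ± 1.23 CPM (log2 fold change -0.50 ± 0.18, adjusted p = 0.434).

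Of 22 tested genes of mitochondrial transcription, replication and biogenesis none was called or had an unadjusted p under 0.05. Ppargc1a, a coactivator of this programme, was at 47.2 ± 5.42 and 44.2 ± 1.93 CPM, and Tfam, which packages and transcribes mitochondrial DNA, at 30.4 ± 4.97 and 28.8 ± 5.92 CPM. Of 9 tested genes of ATP export, uncoupling and outer membrane pores none was called. Ucp2, an inner membrane carrier of the uncoupling protein family that immune cells also express, had the smallest p. It was at 11.7, 11.5 and 10.6 in sham and 16.8, 20.2 and 23.4 CPM in SCI, without overlap (log2 fold change 0.83 ± 0.22, adjusted p = 0.139). Neutrophil markers, of which 6 of 8 were tested and none called, summed to 15.4 to 48.3 CPM in sham and 54.5 to 72.9 CPM in SCI, and their part in the level of Ucp2 was not tested.

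Nuclear members are known targets of the factors NRF1, the ETS family factor GABP, YY1 and CREB. RefSeq promoters on GRCm38.p6, from 250 bases before to 50 after the start of the gene, were at hand for 72 of the 92 nuclear members (77 promoters), and 24 genes held at least 1 of 4 motifs on either strand. The core of the NRF1 motif, GCATGCGC, was in 13.0% of member promoters and 2.71% of all 32851. The YY1 motif AAGATGGCG was in 9.10% against 1.40%, the ETS motif CCGGAAGT in 6.50% against 3.89%, and the CRE TGACGTCA in 5.20% against 1.79%. A match describes letters and not binding. Windows upstream of the start are shown for 1 member of each nuclear complex, with the motif in capitals (NRF1 core, and ETS for Uqcr11), all on the minus strand but that of Sdhb. They lie at chr15:82354347-82354394 (Ndufa6), chr4:140961197-140961244 (Sdhb), chr10:80406860-80406907 (Uqcr11), chr5:115349091-115349138 (Cox6a1) and chr5:108434420-108434467 (Atp5k).
Ndufa6: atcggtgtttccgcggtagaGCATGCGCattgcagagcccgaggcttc
Sdhb: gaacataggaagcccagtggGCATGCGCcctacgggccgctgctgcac
Uqcr11: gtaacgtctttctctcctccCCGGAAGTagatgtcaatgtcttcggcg
Cox6a1: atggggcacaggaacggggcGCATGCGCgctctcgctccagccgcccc
Atp5k: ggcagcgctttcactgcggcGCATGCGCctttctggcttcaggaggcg

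The log2 fold changes of these 5 genes were -0.18 ± 0.21 for Ndufa6, 0.12 ± 0.24 for Sdhb, 0.16 ± 0.20 for Uqcr11, 0.01 ± 0.22 for Cox6a1 and 0.11 ± 0.23 for Atp5k. None was called, and each was smaller than its standard error. The gene of the factor Nrf1 itself was at 8.01 ± 2.35 in sham and 7.14 ± 0.763 CPM in SCI.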

How the data were processed

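RNA of 6 spinal cord samples (3 sham, 3 SCI) was measured with the Lexogen QuantSeq Forward kit as single-end reads of 50 bases, per the labels' design text. The authors deposited whole-number read counts per Ensembl gene, which are not normalized. Reads were aligned with STAR 2.7.2b to mm10 with Ensembl release 96, per the labels' design text, and DESeq2 1.24.0 was among the tools per the submitters' processing notes. Which tool counted reads, with which strand setting and which rule for several matches, is not given in the sources used here.

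A symbol was matched to 42462 of 43432 identifiers. Genes passing filterByExpr by group (13560 of 21524 with at least 1 count) were tested with edgeR 4.0.16 in R 4.3.3 by the quasi-likelihood F test with robust estimation and TMM, with calls at an adjusted p under 0.05 (Benjamini-Hochberg, over every tested gene). Standard errors were obtained as the size of a log2 fold change over the root of its F statistic. The procedure was also run on simulated counts drawn from the means, depths and dispersions of these libraries. Those counts held no library deviations linked to GC content or hepatocyte RNA, so the run does not bear on these. The common biological coefficient of variation was 19.9%. Libraries were grouped by title, and the design text gives 3 mice per group, so p-values measure the spread between mice. Limits from 3 counts cover counting error only. Alternatives were total-count and RLE scaling, TMM without mitochondrial genome genes, DESeq2 1.42.0, limma voom (3.58.1), no filter, a filter of 5 CPM in 3 libraries, a replicate block, hepatocyte and skeletal muscle covariates, each library left out, subunits only, and Ndufab1 added. Transcripts came from GENCODE M21 and promoters from RefSeq.

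The members, gene lists and tests were chosen with earlier results of these data known. Named are all mitochondrial members, in each complex the nuclear member with the highest level, the highest and the lowest fold change and the smallest p, and the isoform pairs. Other members and pathway genes were chosen after their values were seen.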

Additional observations from a re-analysis of the deposited data

How the results depend on the processing

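No member was called under any alternative run, and the median of each genome stayed within 0.1 log2 units of 0. The smallest adjusted p among members was 0.065 (Cox7c) when no filter on low counts was applied. That fit had 8 members at an unadjusted p under 0.05, all lower in SCI. Elsewhere the smallest adjusted p was between 0.298 and 0.871. Among the 33 named members tested, 31 of 525 values under alternatives changed sign, in 14 members whose log2 fold changes were at most 0.26 in size. With the replicate number as a block, 0 members were called and 4 had an unadjusted p under 0.05, with a smallest adjusted p of 0.734, while calls over all genes went from 126 to 82. Deviations of same-numbered libraries correlated at -0.09, -0.07 and -0.18, and no library correlated best with its own number. Calls over all genes were 63 without sham 1, 224 with no filter and 239 with the hepatocyte covariate. Total counts per library limit what could be seen for members with few reads, such as Atp5s, Atp5l and mt-Nd3.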
